A study of Mus musculus with 9 samples.

Results

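Aquaporins are the membrane channel proteins that let water, and in some members glycerol, urea, ammonia or hydrogen peroxide, cross cell membranes. The 7 aquaporin genes *Aqp1*, *Aqp3*, *Aqp4*, *Aqp7*, *Aqp8*, *Aqp9* and *Aqp11* were followed by name through bulk RNA-Seq of mouse liver, out of 43346 genes in the count table. They were selected with both comparisons against baseline liver seen and with *Aqp8* known to be lower there, so the values of these genes in those comparisons are given as a description, with no p. The direct comparison of the treatments at 40 hours was not the one they were selected on, and it was tested. It uses the same 40 h libraries as those comparisons, so it is not independent of the selection. Of the 7 genes, 5 passed the filter on low counts and were among the 15024 genes tested. *Aqp3* and *Aqp7* did not.

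The 9 libraries came from livers of 12-week-old C57/BL6 mice, with 3 libraries in each of 3 groups. The mice were male according to the study's methods. Vehicle mice (normal saline) gave both the resection specimen taken at 70% partial hepatectomy, called vehicle 0 h or baseline, and the regenerating remnant 40 hours later, called vehicle 40 h. The remaining group, NSC 40 h, was the remnant at 40 hours of mice given NSC-87877, an inhibitor of the phosphatases SHP1 and SHP2, at 7.5 mg/kg per dose every 12 hours, begun before surgery. There was no NSC-treated baseline group, and the labels do not say whether a resection specimen and a remnant came from the same mouse. The comparisons ask how each aquaporin differed between resected and regenerating liver, and between treatments at the same time. By the study's methods the resected tissue was the median and left lateral lobes, and the remnant was the lobes left in place. Lobe, time of day and the surgery itself therefore cannot be told apart from regeneration in any comparison with baseline. Counted reads ranged from 23997363 to 42887589 per library. The defining hepatocyte markers were present in every library, with none of 12 at 0. One NSC 40 h library, replicate 1, stood apart from the other NSC 40 h libraries: without it, the direct comparison called 994 genes instead of 6. Values of the aquaporins that moved by over 1.5 times or changed sign without it are also given without it.

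In the liver, *Aqp8* protein is known from hepatocytes, in vesicles that move to the canalicular membrane when bile is secreted and in the inner mitochondrial membrane, and it passes water, ammonia and hydrogen peroxide. *Aqp9* encodes the aquaglyceroporin of the sinusoidal face of hepatocytes, the route by which glycerol enters for gluconeogenesis and by which urea can leave. *Aqp11* encodes an intracellular channel of the endoplasmic reticulum. *Aqp1* is the water channel of endothelium, red cells and bile duct epithelium. *Aqp4* is best known from astrocytes, *Aqp3* from epithelia and *Aqp7* from adipocytes, where it lets glycerol out.

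*Aqp8* and *Aqp9*, the most abundant members in baseline liver, took different courses: *Aqp8* mRNA was several times lower in regenerating than in baseline liver and *Aqp9* mRNA was not. The promoters of both are shown for that reason. *Aqp8* (ENSMUSG00000030762) lies on the plus strand at chr7:123462294-123468003, and *Aqp9* (ENSMUSG00000032204) on the minus strand at chr9:71110659-71168682. The stretches below are the 250 bases before a RefSeq transcription start of each gene in build GRCm38.p6, at chr7:123462044-123462293 on the plus strand and at chr9:71163290-71163539 on the minus strand, 5′ to 3′. For *Aqp8* the RefSeq start is the start of the deposited gene model. *Aqp9* has 2 RefSeq starts in the table, of which the one farther upstream is shown, and it lies 5393 bases inside the deposited gene model. The other lies 6049 bases inside it.
Aqp8: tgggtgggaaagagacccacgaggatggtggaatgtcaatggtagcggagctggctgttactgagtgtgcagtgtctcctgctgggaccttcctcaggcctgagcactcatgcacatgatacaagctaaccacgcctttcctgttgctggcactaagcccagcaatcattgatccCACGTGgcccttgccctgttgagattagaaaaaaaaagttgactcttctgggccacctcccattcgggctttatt
Aqp9: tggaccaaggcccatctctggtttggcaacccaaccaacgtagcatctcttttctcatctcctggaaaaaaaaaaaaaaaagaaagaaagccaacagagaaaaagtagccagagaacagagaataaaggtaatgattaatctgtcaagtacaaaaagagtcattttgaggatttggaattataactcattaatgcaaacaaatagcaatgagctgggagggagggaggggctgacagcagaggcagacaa
Capitals mark the matches to a set of 6 short motifs, searched on both strands and chosen after the sequences had been seen: CACGTG is the E-box core, TATAAA the TATA box, CCAAT the site of NF-Y, TGTTTAC a forkhead site, AGGTCA the repeat unit of nuclear receptor sites and GTTAAT that of HNF1 sites. None of these motifs overlapped another in these stretches. The *Aqp8* stretch held 1 CACGTG, starting 75 bases before the transcription start. Of 32851 mouse promoter stretches of the same length, 6.0% held CACGTG. The *Aqp9* stretch held none of the 6, and neither did the stretch before its other start. Its GC content was 40.4%, against 52.4% for *Aqp8*. A match is a description of the letters in this window, not a binding site.

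*Aqp8* was the most abundant aquaporin per gene length at baseline and the one whose mRNA was far lower in both groups of regenerating livers. Its 3 baseline libraries held 267, 192 and 247 CPM (read counts scaled to the library total after TMM normalization). The 3 vehicle 40 h libraries held 37.0, 39.8 and 35.7 CPM, and the 3 NSC 40 h libraries 46.6, 49.6 and 49.5 CPM. All 6 regenerating livers thus lay far below all 3 baseline livers, and the groups did not overlap. Relative to baseline, the edgeR log2 fold change of *Aqp8* was -2.65 (standard error 0.16) in vehicle 40 h livers, which left 15.9% of the baseline level. In NSC 40 h livers it was -2.28 (standard error 0.16), or 20.6% of baseline. Both comparisons share the same 3 baseline libraries. Hepatocyte marker genes did not fall to the same degree: their summed level, over 12 genes, was 150400 to 154400 CPM at baseline, 138803 to 191418 CPM in vehicle 40 h and 137029 to 146915 CPM in NSC 40 h livers. Relative to that hepatocyte sum, *Aqp8* stood at 1279 to 1729 ppm at baseline, 208 to 266 ppm in vehicle 40 h and 338 to 346 ppm in NSC 40 h livers. In bulk liver, fewer cells of a type and less RNA per cell cannot be told apart for any of the genes here.

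At 40 hours, all 3 NSC-treated livers held more *Aqp8* mRNA than all 3 vehicle-treated livers, by a small margin. The means were 48.6 ± 1.73 CPM (SD, n = 3) with NSC and 37.5 ± 2.12 CPM (SD, n = 3) with vehicle. The log2 fold change was 0.37 (standard error 0.15), a fold of 1.29 with a 95% interval of 1.03 to 1.62. The unadjusted p was 0.0288 and the adjusted p over all genes tested was 0.207 (edgeR quasi-likelihood test, Benjamini-Hochberg), so the difference was not called. Without NSC 40 h replicate 1 it was 0.40 on the log2 scale with an adjusted p of 0.156 by the same edgeR test. Across 16 other settings the adjusted p ran from 0.123 to 0.435 (edgeR, or DESeq2 in 1 of them). Groups that did not overlap in this direction were found for 10.3% of all genes tested. Because both treatments are set against the same baseline, the direct comparison is also the test of whether the 2 changes from baseline differed.

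**Figure D1:**
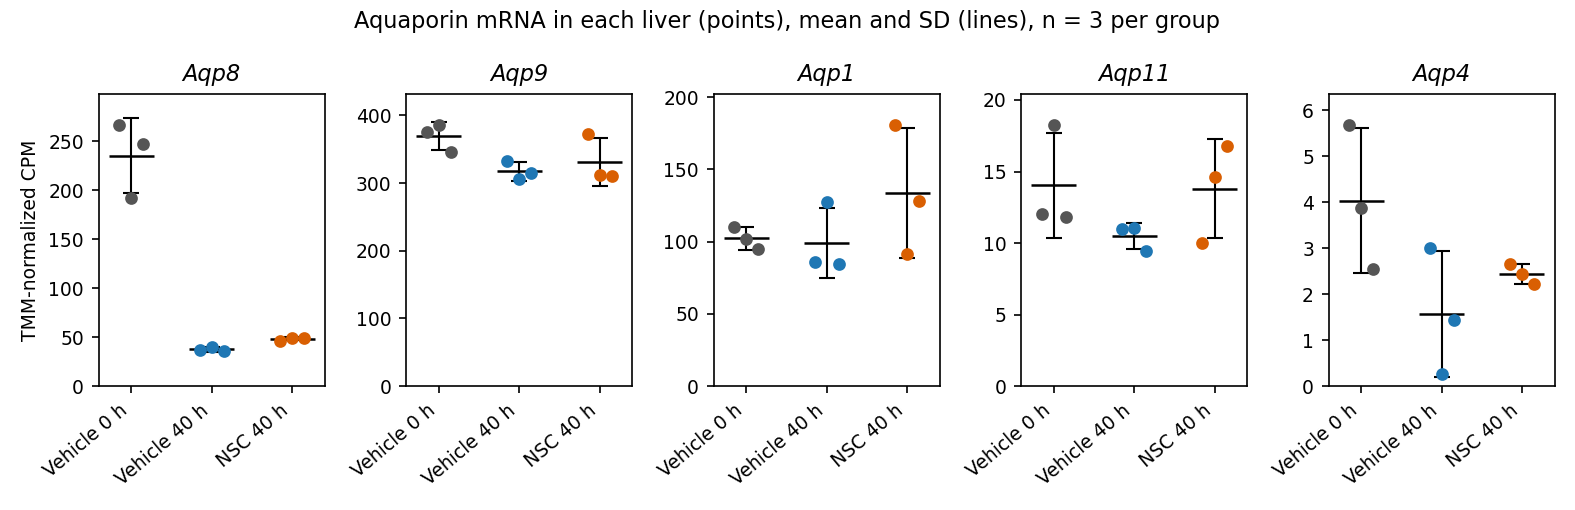
TMM-normalized CPM (y axis, linear from 0, a separate scale in each panel) of the 5 aquaporins that passed the filter in vehicle 0 h, vehicle 40 h and NSC 40 h livers; each point is 1 library, the horizontal line the mean and the bar the SD of 3 libraries. The *Aqp8* baseline points, 192 to 267 CPM, sit far above all 6 points of regenerating liver, 35.7 to 49.6 CPM, whereas in the *Aqp1* panel the groups overlap.

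*Aqp9*, the hepatocyte glycerol channel, stood at 86.1% of its baseline level in vehicle 40 h and 89.8% in NSC 40 h livers by the edgeR fit. Its baseline libraries held 375, 386 and 346 CPM. Vehicle 40 h libraries held 333, 305 and 315 CPM, all 3 just below the lowest baseline library. NSC 40 h libraries held 372, 312 and 310 CPM, and replicate 1 of that group fell within the baseline range. The log2 fold changes from baseline were -0.22 (standard error 0.15) with vehicle and -0.15 (standard error 0.15) with NSC, or -0.24 without NSC 40 h replicate 1. Between treatments at 40 hours the log2 fold change of *Aqp9* was 0.06 with a 95% interval of -0.26 to 0.38 (adjusted p = 0.851, edgeR quasi-likelihood test), and its sign turned to -0.03 without NSC 40 h replicate 1.

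*Aqp11* (ENSMUSG00000042797, chr7:97726379-97738247, minus strand) gave a low signal, with 256 to 598 counts per library. Its baseline libraries held 12.0, 18.3 and 11.8 CPM, vehicle 40 h libraries 11.0, 11.1 and 9.45 CPM, and NSC 40 h libraries 10.02, 14.6 and 16.7 CPM. The vehicle 40 h livers all lay below baseline, though 1 baseline library, replicate 2, stood well above the other 2. The log2 fold changes from baseline were -0.42 (standard error 0.22) with vehicle and -0.03 (standard error 0.22) with NSC, and the latter changed sign with the scaling and without NSC 40 h replicate 1, at 0.16. Without vehicle 0 h replicate 2 the values were -0.18 and 0.21. Between treatments the log2 fold change was 0.39 (95% interval -0.09 to 0.88, adjusted p = 0.344, edgeR quasi-likelihood test). Without NSC 40 h replicate 1 it was 0.58, and without NSC 40 h replicate 3 it was 0.23.

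*Aqp1* (ENSMUSG00000004655, chr6:55336432-55348555, plus strand) varied widely among the livers of each 40 h group. Baseline libraries held 110, 102 and 94.8 CPM, vehicle 40 h libraries 85.7, 127 and 84.7 CPM, and NSC 40 h libraries 181, 91.3 and 128 CPM. The groups overlapped, and the coefficient of variation was 7.70% at baseline, 24.6% in vehicle 40 h and 33.7% in NSC 40 h livers. The log2 fold changes from baseline were -0.04 (standard error 0.24) with vehicle and 0.38 (standard error 0.24) with NSC, and without NSC 40 h replicate 1 the latter was 0.10. Without vehicle 40 h replicate 2 the former was -0.26, and it was above 0 without some other libraries. Between treatments the log2 fold change was 0.43 (95% interval -0.09 to 0.94, adjusted p = 0.336, edgeR quasi-likelihood test), and without NSC 40 h replicate 1 it was 0.14. It was 0.65 without vehicle 40 h replicate 2.

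At 40 hours, the liver with the most *Aqp1* in each treatment group was also the one with the most mRNA of other endothelial genes. The summed level of 14 endothelial marker genes was 378 to 413 CPM at baseline. At 40 hours it was 254, 368 and 255 CPM in the vehicle libraries and 421, 245 and 277 CPM in the NSC libraries, so that vehicle replicate 2 and NSC replicate 1 led their groups in both measures. That lead was not particular to endothelial genes. The same libraries also led their groups in the summed macrophage markers (346 and 573 CPM), stellate cell markers (432 and 418 CPM) and neutrophil markers (20.8 and 21.8 CPM). They did not both lead in hepatocyte, cholangiocyte, erythroid or fat cell markers. As a ratio to that endothelial sum, which does not include it, *Aqp1* stood at 24.6% to 29.1% at baseline, 33.2% to 34.6% in vehicle 40 h and 37.4% to 46.2% in NSC 40 h livers. The ratio was formed after the values were seen and was not tested. Red cells also carry *Aqp1*. The summed level of 10 erythroid marker genes was 246 to 353 CPM at baseline, 130 to 220 CPM with vehicle and 159 to 272 CPM with NSC. Much of that step was *Alas2*, which averaged 152, 42.7 and 50.1 CPM in the same order. The globin genes moved less and none was called. *Hbb-bs* averaged 66.6, 55.9 and 72.3 CPM, and *Hbb-bt* 20.6, 19.6 and 22.6 CPM. *Hba-a1* averaged 19.2, 14.4 and 13.9 CPM, and *Hba-a2* 12.3, 7.54 and 8.36 CPM. The erythroid sum is therefore no measure of red cell content. The summed level of 10 cholangiocyte marker genes was 51.2 to 57.1 CPM, 85.9 to 129 CPM and 90.4 to 132 CPM. The part of any of these cell types in the *Aqp1* values was not tested.

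**Figure D2:**
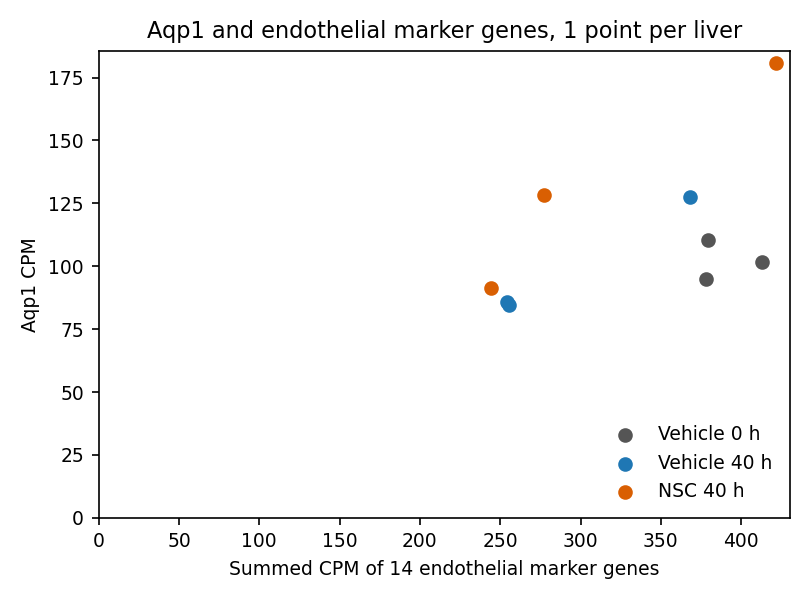
*Aqp1* CPM (y axis) against the summed CPM of 14 endothelial marker genes (x axis), both linear from 0, with 1 point for each of the 9 libraries, coloured by group. NSC 40 h replicate 1 is at the top right with 181 and 421 CPM, and at a similar endothelial sum the baseline points lie lower, at 94.8 to 110 CPM.

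The other members were low. *Aqp4* (ENSMUSG00000024411) held 10 to 180 counts per library, with 5.69, 3.88 and 2.54 CPM at baseline, 3.00, 0.259 and 1.44 CPM in vehicle 40 h and 2.67, 2.44 and 2.23 CPM in NSC 40 h livers. The NSC values fell among the vehicle values. The log2 fold changes from baseline were -1.36 (standard error 0.63) with vehicle and -0.72 (standard error 0.62) with NSC, and the difference between treatments was 0.64 (95% interval -0.79 to 2.07, adjusted p = 0.604, edgeR quasi-likelihood test). Single libraries moved these values widely. Without vehicle 40 h replicate 2 the change from baseline with vehicle was -0.84 and the difference between treatments 0.13, and without vehicle 40 h replicate 1 they were -2.29 and 1.57. Without vehicle 0 h replicate 1 the change from baseline with NSC was -0.39.

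*Aqp3* (ENSMUSG00000028435, chr4:41092722-41098183, minus strand) gave 9 counts and *Aqp7* (ENSMUSG00000028427, chr4:41033074-41048139, minus strand) 8 counts over all 9 libraries, with no library above 3. *Aqp3* was at 0 in 4 libraries and *Aqp7* in 5. A count of 0 allows a level of up to 0.0751 to 0.117 CPM at these depths (3 counts, counting error only), so a difference between groups was not detectable for either gene. *Aqp7* is the glycerol channel of fat cells, and of the 9 fat cell markers *Lep*, *Plin1* and *Adipoq* were also near 0: *Lep* was at 0, *Plin1* had at most 1 count and *Adipoq* at most 5 counts in any library. Others of that list were well detected, *Fabp4* with up to 1046 counts, *Cidec* with up to 211 and *Cfd* with up to 106. The summed level of the 9 was 8.25 to 17.2 CPM at baseline, 15.9 to 20.9 CPM in vehicle 40 h and 11.9 to 38.4 CPM in NSC 40 h livers. The remaining aquaporin genes in the table, *Mip*, *Aqp2*, *Aqp5*, *Aqp6* and *Aqp12*, had at most 1 count in a library.

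Across the family, 1 of the 5 tested genes, *Aqp8*, had an adjusted p under 0.05 in each comparison with baseline, which the selection already used. Of all genes tested, 23.7% did so in the vehicle comparison and 34.7% in the NSC comparison. Nothing is read from that count. Also as a description, in vehicle 40 h livers *Aqp8*, *Aqp9* and *Aqp11* had all 3 libraries below all 3 baseline libraries, as had 22.0% of all genes, and in NSC 40 h livers *Aqp8* alone did, as had 23.1% of all genes. In the direct comparison of treatments 0 of 5 were called by edgeR, where 0.0399% of all genes were. By unadjusted p under 0.05 there was 1, *Aqp8*, and DESeq2 called 0. The 5 point estimates of that comparison all lay above 0, between 0.06 and 0.64 on the log2 scale, and all but that of *Aqp8* had intervals that included 0.

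**Figure D3:**
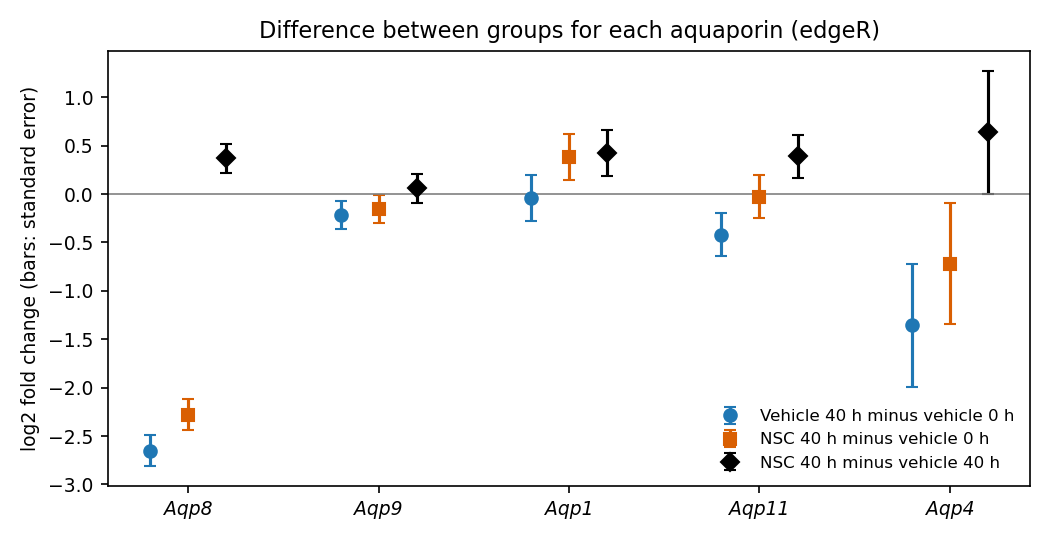
Log2 fold change (y axis) of each of the 5 tested aquaporins in the 3 comparisons, with bars of 1 standard error from the edgeR fit. *Aqp8* stands at -2.65 and -2.28 against baseline, apart from the other 4 genes, and the black diamonds of NSC against vehicle at 40 hours lie between 0.06 and 0.64.

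The make-up of the liver's aquaporin mRNA was compared on the deposited FPKM values (counted fragments scaled to gene length and library total), since levels of different genes can be compared only per length. At baseline the order was *Aqp8* at 144 ± 23.4, *Aqp9* at 85.9 ± 4.46, *Aqp1* at 37.6 ± 2.67, *Aqp11* at 10.2 ± 2.66 and *Aqp4* at 0.765 ± 0.295 FPKM (SD, n = 3 each). No neighbours in this order overlapped. *Aqp3* and *Aqp7*, below them, could not be ordered. At 40 hours *Aqp8* ranked behind both *Aqp9* and *Aqp1*. Vehicle 40 h livers held *Aqp9* at 74.9 ± 9.31, *Aqp1* at 36.4 ± 6.44, *Aqp8* at 23.1 ± 1.45, *Aqp11* at 7.73 ± 0.927 and *Aqp4* at 0.315 ± 0.291 FPKM (SD, n = 3 each), again without overlap between neighbours. NSC 40 h livers had the same order, with *Aqp9* at 85.2 ± 12.0, *Aqp1* at 54.5 ± 20.3, *Aqp8* at 32.7 ± 0.610, *Aqp11* at 11.1 ± 2.57 and *Aqp4* at 0.513 ± 0.0591 FPKM (SD, n = 3 each).

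By FPKM, *Aqp8* led the aquaporin transcripts in every baseline liver and came after *Aqp9* and *Aqp1* in every regenerating liver. In counts not divided by length, *Aqp9* led *Aqp8* at baseline as well, with 11864, 12635 and 10475 against 8448, 6301 and 7487. Their order at baseline and the shares below thus rest on the deposited gene lengths, 4143 bases for *Aqp9* and 1577 bases for *Aqp8*. The share of *Aqp8* in the summed aquaporin FPKM was 51.5% at baseline, 16.2% in vehicle 40 h and 18.1% in NSC 40 h livers, as means of 3. The share of *Aqp9* was 31.0%, 52.5% and 46.5%, and that of *Aqp1* 13.5%, 25.6% and 28.9%. *Aqp9* FPKM was 0.533 to 0.764 times that of *Aqp8* at baseline, 2.92 to 3.43 times in vehicle 40 h and 2.38 to 3.04 times in NSC 40 h livers. The 7 genes together summed to 299, 259 and 277 FPKM at baseline, 153, 140 and 134 FPKM in vehicle 40 h and 217, 157 and 179 FPKM in NSC 40 h livers. In the highest NSC sum, replicate 1, *Aqp1* contributed 76.0 FPKM. Deposited FPKM are divided by total counts and not by TMM-scaled totals. With TMM-scaled totals, an alternative chosen after seeing the data, the sums were 145, 156 and 138 FPKM with vehicle and 196, 153 and 168 FPKM with NSC, and these ranges overlapped. *Aqp8* in NSC 40 h livers then came to 30.8 FPKM.

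**Figure D4:**
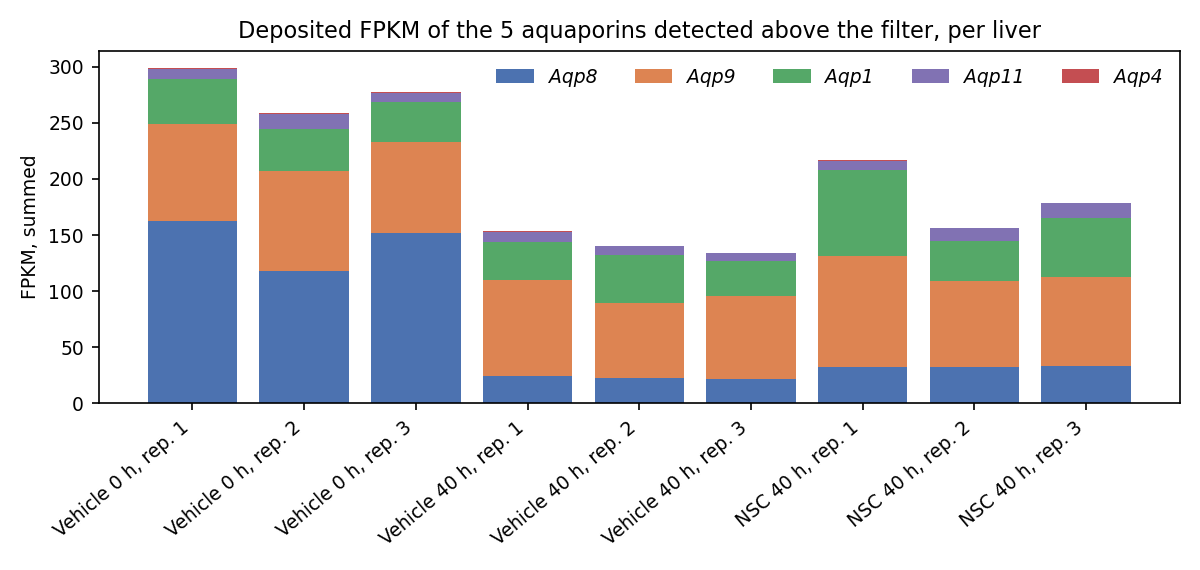
Deposited FPKM (y axis, linear from 0) of the 5 aquaporins that passed the filter, stacked for each of the 9 livers. The *Aqp8* segment shrinks from a mean of 144 FPKM at baseline to 23.1 and 32.7 FPKM at 40 hours, while the *Aqp9* segment lies between 66.3 and 99.0 FPKM in all 9 livers.

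The genes that work beside these channels were taken from lists of known pathway members. These lists, and the marker lists further below, were chosen with earlier results of these data known. Their counts and adjusted p against baseline are therefore a description and no independent support. The list of glycerol handling reached beyond the use of glycerol entering through *Aqp9*, to gluconeogenesis, lipolysis, lipid droplets and triglyceride synthesis. Its counts therefore do not describe the *Aqp9* route alone. Of its 21 genes, 9 fell and 0 rose in vehicle 40 h livers against baseline, where 11.0% of all genes fell and 12.7% rose by the same edgeR call. In NSC 40 h livers 13 fell and 1 rose, where 16.5% of all genes fell and 18.2% rose. The median log2 fold change of the list was -0.70 with vehicle and -1.09 with NSC, beside 0.01 over all genes in both. Without vehicle 0 h replicate 2, 5 genes of this list were called with vehicle, and without vehicle 40 h replicate 3 there were 4. The gene with the smallest adjusted p was *G6pc*, the glucose-6-phosphatase that releases glucose at the end of gluconeogenesis, at -2.03 (standard error 0.30) and -2.60 (standard error 0.31), with edgeR adjusted p of 0.000909 and 0.000173. *Abhd5*, the coactivator of the triglyceride lipase ATGL, was the gene that rose with NSC, by 0.36 (standard error 0.13, adjusted p = 0.0481, edgeR). Glycerol kinase, listed as *Gyk* and singled out here for its role after the values were seen, is the first step after entry through *Aqp9*. Its log2 fold change was -0.24 (vehicle) and 0.44 (NSC), and it was called in neither comparison.

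Of 12 tested genes of the urea cycle and ammonia handling, 4 fell with vehicle and 6 with NSC, and 0 rose in either, beside the 11.0% and 16.5% of all genes that fell. The medians were -0.46 and -0.49. *Gls2*, the liver glutaminase, was lower by a log2 fold change of -1.32 (adjusted p = 0.000729, edgeR) in vehicle 40 h livers. In NSC 40 h livers it was at -1.70 (adjusted p = 0.000122, edgeR). *Asl*, argininosuccinate lyase of the urea cycle, was at -2.31 (adjusted p = 7.75e-05, edgeR) in NSC 40 h livers. In vehicle 40 h livers it was at -1.59 (adjusted p = 0.000869, edgeR). Of 16 tested genes of peroxide handling, 6 fell with vehicle and 3 with NSC, and 0 rose, with medians of -0.33 and -0.31. The count with NSC was near the 16.5% of all genes that fell. Without NSC 40 h replicate 3, 6 were called with NSC. *Cat*, catalase, was at -1.49 (adjusted p = 0.000324, edgeR) with vehicle and -1.22 (adjusted p = 0.000673, edgeR) with NSC. *Txnrd2*, the mitochondrial thioredoxin reductase, was at -0.99 (adjusted p = 0.00191, edgeR) with vehicle and -1.16 (adjusted p = 0.000543, edgeR) with NSC.

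Of 15 tested bile transport genes of the canalicular and basolateral membranes, 6 fell and 0 rose with vehicle, and 7 fell and 2 rose with NSC. Over all genes, 11.0% fell and 12.7% rose with vehicle, and 16.5% fell and 18.2% rose with NSC. The medians were -0.34 and -0.57. *Slc10a1*, the sodium-dependent bile acid uptake carrier, was at -1.17 (adjusted p = 0.00191, edgeR) with vehicle and -1.14 (adjusted p = 0.00149, edgeR) with NSC. *Abcc3*, a basolateral export pump, was at -1.14 (adjusted p = 0.00296, edgeR) with vehicle and -1.48 (adjusted p = 0.000481, edgeR) with NSC. *Slc51b*, a subunit of a basolateral bile acid exporter, was at 3.73 (standard error 0.92, adjusted p = 0.0122, edgeR) with NSC. With vehicle it was at 2.39 (standard error 0.93, adjusted p = 0.0924, edgeR) and not called. Between treatments it was at 1.34 (adjusted p = 0.360, edgeR). *Slc51b* was low and uneven, with a mean of 0.187 CPM at baseline. It held 0.994 ± 0.527 CPM in vehicle 40 h and 2.57 ± 2.54 CPM in NSC 40 h livers (SD, n = 3 each). The gene of the other subunit, *Slc51a*, looked up after the values were seen, had 0 counts in every library. The canalicular bile salt pump gene *Abcb11*, singled out after the values were seen because it serves the membrane that *Aqp8* protein reaches, was at -0.27 and -0.24 and was called in neither comparison.

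Marker genes gave the cellular setting of these values. The counts below stand beside the same 11.0% lower and 12.7% higher over all genes with vehicle, and 16.5% lower and 18.2% higher with NSC, so counts of 1 or 2 genes say nothing about a list. The gene named for each list is the called gene with the smallest adjusted p, not the widest change. Against baseline, hepatocyte markers were divided, with 2 of 12 up and 3 down with vehicle and 1 up and 4 down with NSC. *Fgb*, a fibrinogen chain, rose by 1.37 and 0.91 in log2 units, and *Tat*, tyrosine aminotransferase, was lower at -1.25 and -1.93. Of 7 tested cholangiocyte markers 4 rose with vehicle and 3 with NSC, among them *Krt19* at 2.07 and 0.99 and *Spp1* at 1.14 and 1.35. Of 14 endothelial markers 4 fell with vehicle and 3 with NSC, in both *Gpihbp1*, at -1.20 and -1.30. Erythroid markers had 1 of 6 lower in each, *Alas2* at -1.83 and -1.60. Neutrophil markers had 1 of 5 higher with vehicle and 3 with NSC, among them *Retnlg* at 2.74 and 3.08. Macrophage markers had 2 of 10 higher with vehicle and 5 with NSC, among them *Marco* at 3.39 and 4.10. *Cd5l* was called with NSC at 1.39 and was at 0.55 with vehicle, where it was not called. Stellate cell markers had 6 of 10 higher with vehicle and 2 higher and 1 lower with NSC, with *Hgf* at 1.73 and 1.80 and *Colec11* at -0.63 with NSC. Of 3 tested fat cell markers, *Fabp4* rose by 1.41 and 1.65 and *Cfd* was lower at -2.66 and -3.77. All these calls passed an edgeR adjusted p of 0.05. Leaving out 1 library moved several of these counts by more than 1.5 times. With vehicle, 3 hepatocyte markers were called without vehicle 0 h replicate 3, 2 endothelial markers without vehicle 40 h replicate 1 or 3, 2 erythroid markers without vehicle 40 h replicate 2, and 3 neutrophil markers without vehicle 0 h replicate 1. Macrophage calls numbered 1 without vehicle 0 h replicate 2 or 3 or vehicle 40 h replicate 1. Fat cell calls with vehicle numbered 0 without vehicle 40 h replicate 2 or 3 and 1 without any other vehicle library. With NSC, 7 endothelial markers were called without NSC 40 h replicate 1 and 1 without NSC 40 h replicate 2. Cholangiocyte calls numbered 1 and erythroid calls 2 without vehicle 0 h replicate 1, and stellate cell calls 1 without vehicle 0 h replicate 3. In the direct comparison of treatments, edgeR called 0 of the 130 genes on these lists, 31 had an unadjusted p under 0.05, and DESeq2 called 13.

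The genes whose log2 CPM followed each aquaporin most closely over the 9 libraries are given as a description, since the libraries share 3 groups. For *Aqp8* they were *Pbld1*, *Bco2* and *Ube2h*, each with a Pearson r of 0.99. After the group means were removed these r values were 0.52, 0.68 and 0.66. *Pbld1* averaged 436 CPM at baseline, 171 CPM in vehicle 40 h and 189 CPM in NSC 40 h livers. For *Aqp9* they were *Txnip*, *Clip1* and the gene ENSMUSG00000025702, whose symbol is deposited as a date, with r of 0.96 each and 0.93 to 0.96 within groups. *Txnip* averaged 120 CPM at baseline, 30.4 CPM with vehicle and 48.9 CPM with NSC, a far wider step than that of *Aqp9* itself. For *Aqp1* they were *Icos*, *Tspan7* and *Klk8* (r of 0.94, 0.94 and 0.93), of which *Icos* and *Klk8* averaged under 1 CPM in all 3 groups. For *Aqp11* they were *Mrps17*, *Olfml1* and *Gm11266* (r of 0.96, 0.92 and 0.92), of which *Gm11266* is annotated as antisense and could share reads with a gene on the other strand if counting ignored strand. For *Aqp4* they were *Rufy4*, *Rnf152* and *Lace1* (r of 0.92 each). Between members, the closest pair was *Aqp8* and *Aqp9* with an r of 0.69 over the 9 libraries, which was -0.44 within groups.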

How the data were processed

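Whole-liver RNA was made into TruSeq Stranded mRNA libraries. The authors deposited 1 table with raw counts and FPKM per gene, made with the MAP-RSeq pipeline according to the study's methods; the submitters' notes name STAR 2.6.1 and featureCounts of Subread 1.5.1. The notes name the human build hg38, but the gene identifiers and coordinates are mouse, at GRCm38 positions. Whether counting used strand is not given in the sources used here. No aquaporin overlapped another listed gene. Deposited FPKM equalled values recomputed from counts, gene length and total counts to within 0.000454 of their size for the 7 aquaporins.

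Counts were tested with edgeR 4.0.16 in R 4.3.3: TMM scaling, filterByExpr, 1 quasi-likelihood fit (robust) over all 9 libraries with group as the only term, and Benjamini-Hochberg adjustment over 15024 genes. Genes were called at an adjusted p under 0.05. Standard errors are the absolute log2 fold change over the square root of F. DESeq2 1.42.0 was an alternative. The fit was also run on simulated counts, and nothing here rests on that run. Libraries per group were 3. The study's figure legends call them biological replicates; the labels do not tie them to mice. No pair of libraries in a group agreed within sampling noise. An exact permutation test of 3 against 3 cannot go below a p of 0.1 and was not used.

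The aquaporins, the pathway lists and the marker lists were chosen with earlier results of these data known. Genes named besides the aquaporins were, for each list, comparison and direction, the called gene with the smallest adjusted p, and, for each tested aquaporin, the 3 genes with the highest Pearson r of log2 CPM (prior count 2), apart from those said to have been chosen after the values were seen. Promoter stretches came from RefSeq (GRCm38.p6) and were matched for 6 of 7 members.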

Additional observations from a re-analysis of the deposited data

How the results depend on the processing

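Each comparison was repeated under 16 other settings: RLE or library size scaling, looser and stricter count filters, DESeq2, a fit of the compared groups alone, a replicate block, and each library left out in turn. A stricter call that also asked for an absolute log2 fold change over 1.5 was tried as well. Of the aquaporins' log2 fold changes under these settings, 232 kept their direction and their side of the threshold, 7 changed sign and 1 passed the threshold in addition. As a description of a comparison used in the selection, the log2 fold change of *Aqp8* against baseline lay between -2.77 and -2.55 for vehicle and between -2.40 and -2.14 for NSC. Between treatments *Aqp8* was called under none of these settings. The number of aquaporins called in vehicle 40 h against baseline ran from 1 to 2 when libraries were left out. The value of 2 arose without vehicle 40 h replicate 1, where *Aqp4*, at -2.29, was called as well; the cause was not tested. *Aqp1* in vehicle 40 h against baseline changed sign without vehicle 0 h replicate 1 (0.014), vehicle 40 h replicate 1 (0.057) or vehicle 40 h replicate 3 (0.064), with a range of -0.26 to 0.064. *Aqp11* in NSC 40 h against baseline changed sign with library size scaling alone (0.11), and without vehicle 0 h replicate 2 (0.21) or NSC 40 h replicate 1 (0.16), with a range of -0.19 to 0.21. *Aqp9* between treatments was -0.033 without NSC 40 h replicate 1 and at most 0.11 without any other library. Library size scaling alone moved the median log2 fold change of all genes to 0.14 between treatments and 0.15 for NSC against baseline, from 0.02 and 0.01. The replicate numbers were not taken as pairs, because same-numbered libraries deviated from their group means with correlations of -0.05 to 0.13. With a replicate block, 1, 1 and 0 aquaporins were called in the 3 comparisons, as without it. The number of all genes called between treatments was 6, and it was 725 by DESeq2, 221 with every gene of at least 1 count, 11 with the replicate block, 4 with RLE scaling, 1 with library size scaling, and between 0 and 994 when libraries were left out. Of the counts of listed genes, 588 stayed within 1.5 times of the reported count and 75 did not. The 588 include counts of 0 that stayed at 0, in the direct comparison and for the list of other aquaporins, which had no tested gene. They are therefore not a measure of how steady the counts above 0 were. Among the 75 were 7 (library size scaling), 8 (DESeq2) and 7 (replicate block) urea cycle genes instead of 4 in vehicle 40 h livers. In NSC 40 h livers, 6 (DESeq2) and 5 (replicate block) peroxide genes were called instead of 3. Precision is limited by 3 libraries per group and, for *Aqp3*, *Aqp4* and *Aqp7*, by few counts.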
